A study of Mus musculus with 71 samples.

Results

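Apol11b is one of the mouse genes of the apolipoprotein L family, and it was followed here in whole blood of all 6 labelled groups of mice. It was chosen by its readout, as the gene with the largest decrease of the vst value between HOCl mice and HOCl mice given the antibody E07. It is 1 gene of 10508 with a vst value (a normalised read count on a log2 scale) and of 55416 with a raw count. Its values in HOCl and E07 mice are therefore described and carry no test, and Apol11b was tested in the control, D11, D06 and BPR21 mice. Lists of other genes were tested in the same mice, and their values in HOCl and E07 mice are a description as well.

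The study used the mouse model of systemic sclerosis induced by hypochlorous acid (HOCl), an autoimmune and fibrotic disease model in which repeated intradermal HOCl brings on skin and lung fibrosis, to test monoclonal antibodies (mAbs) against galectin-3 (Gal-3, gene Lgals3), a lectin. The study's methods describe female Balb/c AnNRj mice, 6 weeks old, injected 5 days a week for 6 weeks, for the control, HOCl, D11 and E07 groups. The 11 control mice received PBS in place of HOCl, and the 12 mice of the HOCl group received HOCl without antibody. The D11 and E07 groups (12 mice each) received HOCl and the named mAb at 20 mg/kg every 5 days under the skin. The D06 and BPR21 groups (12 mice each) are labelled as HOCl with that name added, and neither their agents and doses nor the sex, strain and age of these mice are described in the sources used here. The study's methods put control and experimental groups in separate cages, so that group and cage cannot be told apart. RNA was sequenced from 71 mice after poly(A) selection and globin depletion, at a total of 11932855 to 15948972 counts per mouse. HOCl mouse 8, the mouse of the lowest total, has counts and no vst value, so that vst values cover 70 mice.

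Apolipoprotein L proteins share an amphipathic helical domain that can insert into membranes. The best known human member, APOL1, circulates on high density lipoprotein and lyses trypanosomes, and the genes of the family lie side by side in both species and include several that respond to interferon. The role of mouse Apol11b itself is little described. In mouse the cluster lies beside Myh9, which encodes non-muscle myosin heavy chain IIA, abundant in leukocytes and platelets.

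Apol11b (ENSMUSG00000091694) lies on the minus strand of chromosome 15 from 77518146 to 77527487 (GRCm39), and no other annotated gene overlaps it. The canonical transcript has 4 exons, a length of 2063 bases and a coding length of 1011 bases. The genome sequence before the start site is shown because the 2 genes that varied most closely with Apol11b between mice, Apol11a and Apol10a, turned out to share much of it. The lines give the 250 bases that end at the base before the start of the canonical transcript (GENCODE M39 on GRCm39), in the direction of transcription. Apol11b is read from chr15:77527488-77527737 on the minus strand and Apol10a from chr15:77360997-77361246 on the plus strand. Capitals mark the letters of a GATA motif (AGATAA or AGATAG, and TGATAA or TGATAG) or of an interferon response motif (GAAA, any 2 bases and GAAA again), each searched on both strands, so that some stand in the reverse orientation.
Apol11b: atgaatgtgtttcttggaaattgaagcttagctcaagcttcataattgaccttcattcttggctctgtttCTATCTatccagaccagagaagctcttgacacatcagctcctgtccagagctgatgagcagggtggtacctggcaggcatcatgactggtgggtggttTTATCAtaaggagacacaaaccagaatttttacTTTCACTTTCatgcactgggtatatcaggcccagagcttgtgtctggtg
Apol10a: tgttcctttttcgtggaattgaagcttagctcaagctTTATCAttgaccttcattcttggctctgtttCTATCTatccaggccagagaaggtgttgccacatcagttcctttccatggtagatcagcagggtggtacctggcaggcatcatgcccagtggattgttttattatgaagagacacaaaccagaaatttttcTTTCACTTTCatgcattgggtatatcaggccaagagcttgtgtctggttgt

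The window of Apol11a (chr15:77392219-77392468, plus strand) holds a run of 249 bases that is also in the Apol11b window, offset by 1 base. The Apol10a window was 85.7% identical to that of Apol11b over the aligned columns. Each of the 3 windows held 2 GATA matches and 1 interferon response match that did not overlap each other. In the Apol11b window the interferon response match lay 49 to 40 bases before the start, and the GATA matches lay 180 to 175 and 82 to 77 bases before it. Of 21770 windows of the same length before protein-coding genes, 26.2% held a GATA match, 3.32% an interferon response match and 1.07% both. Of the 14 Apol genes, 7 had a GATA match, 6 had an interferon response match, and only Apol11b, Apol11a and Apol10a had both. The letters CACCC matched 2 times in the Apol11b window and in 52.9% of all windows, and an E-box (CANNTG), found in 64.8% of all windows, had no match in it. The motifs were chosen after the Apol11b sequence had been read, so that these matches describe the letters and are no evidence of binding.

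In raw counts Apol11b was well measured in every mouse, from 270 in 1 E07 mouse to 9766 in 1 D11 mouse. The 95% Poisson interval of the lowest count was 239 to 304 and covers counting error only. On average over the mice, its vst value of 10.8 lay above that of 92.3% of the genes in the table. Per base of exon, its mean level (RPKM, counts scaled to exon length and to the total count) was 73.9, against 0.767 for Apol11a and 0.747 for Apol10a.

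Control mice had vst values of 8.79 at the lowest, 9.61 at the median and 13.21 at the highest, with a mean of 10.17 ± 1.39 (SD, n = 11). The highest value belonged to control mouse 12, and the next control mouse was at 11.49. HOCl mice ranged from 9.85 through a median of 11.53 to 13.11, with a mean of 11.49 ± 1.07 (SD, n = 11). All 11 HOCl mice with a vst value lay above the median of the control mice, yet the ranges of both groups overlapped. HOCl mouse 8, which has no vst value, stood below all 11 control mice in CPM (counts scaled to the total count of the mouse), at 30.3 against 33.2 in the lowest control mouse.

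In E07 mice the vst value was 8.22 at the lowest, 9.19 at the median and 11.57 at the highest, and its mean was 9.43 ± 1.03 (SD, n = 12). Of the 12 E07 mice, 10 lay below the lowest HOCl mouse with a vst value, and so did 6 of the 11 control mice. This count depended on HOCl mouse 8. In CPM, 9 E07 and 4 control mice lay below the lowest HOCl mouse without mouse 8, and 3 E07 and 0 control mice with it. The remaining E07 mice, numbers 3 and 5, stood at 11.30 and 11.57, inside the HOCl range of vst values.

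D11 mice covered the widest range of the 6 groups, from 8.58 through a median of 10.98 to 14.00, with a mean of 11.13 ± 1.67 (SD, n = 12). D06 mice ranged from 9.17 through 11.49 to 13.41 (mean 11.37 ± 1.396, SD, n = 12). BPR21 mice ranged from 8.81 through 11.41 to 13.28 (mean 11.23 ± 1.47, SD, n = 12). Above the control median lay 10 D11, 11 D06 and 11 BPR21 mice of 12 each, against 2 of 12 E07 mice. The values of every group overlapped those of every other.

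**Figure D1:**
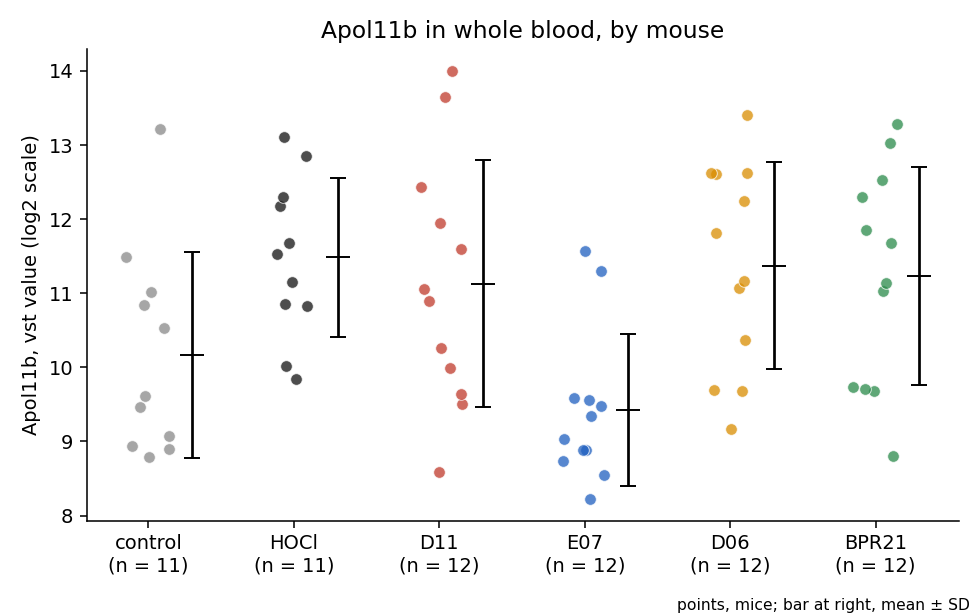
Apol11b in each mouse as a vst value (log2 scale), by group, with the mean and SD of each group to the right of its points. The means run from 9.43 in E07 to 11.49 in HOCl mice, the E07 points lie mostly below 9.85, the lowest vst value of an HOCl mouse, and all 6 groups overlap. HOCl mouse 8 has no vst value and is not plotted.

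The order of the means was E07, control, D11, BPR21, D06 and HOCl. Neighbours in this order differed by less than the SD of either group (E07 and control by 0.74, control and D11 by 0.96, and the 4 highest by 0.36 in all). As a description of the contrast that chose the gene, the difference of E07 from HOCl mice was -2.06 (SE 0.39), the lowest of the 10508 genes. E07 mice also stood below the other 3 treated groups, by -1.70 (SE 0.50) against D11, -1.94 (SE 0.44) against D06 and -1.80 (SE 0.46) against BPR21, and the difference from control mice was -0.74 (SE 0.44, 95% interval -1.65 to 0.17). HOCl mice were higher than control mice by 1.32 (SE 0.46), while D11, D06 and BPR21 mice differed from HOCl mice by -0.36 (SE 0.52), -0.11 (SE 0.45) and -0.26 (SE 0.48). These comparisons share the HOCl, E07 or control mice with each other.

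HOCl mouse 8 had the lowest Apol11b level of its group, and the next HOCl mouse was at 50.6 CPM. With mouse 8, the difference of E07 from HOCl mice on the scale of log2(CPM + 1) was -1.59, and without it -1.80. For HOCl against control mice the corresponding values were 0.77 and 0.97. As medians of CPM, the groups stood at 77.1 in control, 179.8 in HOCl, 146.0 in D11, 42.5 in E07, 169.3 in D06 and 172.0 in BPR21 mice.

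Apol11b passed the test in none of the 6 comparisons among control, D11, D06 and BPR21 mice. These were fitted with limma over all 10508 genes, and a gene was called where its Benjamini-Hochberg adjusted p (FDR) was 0.05 or less and its fold change 1.3 or more. D06 mice were higher than control mice by 1.20 (SE 0.50, 95% interval 0.17 to 2.23), with an unadjusted p of 0.0238 and an FDR of 0.137 from limma, in a comparison that called 7.88% of all genes. BPR21 mice were higher by 1.06 (SE 0.53, FDR 0.269 from limma), where 0.504% of all genes were called. D11 mice were higher by 0.96 (SE 0.57, FDR 0.419 from limma), where 0.0761% were called. Although these differences amount to about the size of 1 doubling, the SD between mice of 1 group was larger than each of them.

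The call for D06 depended on 1 control mouse. Without control mouse 12 the difference of D06 from control mice was 1.51 with an FDR of 0.0243 from limma, and this was the single fit, of 69 that each left out 1 mouse, in which Apol11b was called. Without the same mouse, the differences of D11 and BPR21 mice from control mice were 1.26 and 1.36, still with no call.

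Between D11, D06 and BPR21 mice the differences were small beside their error. D11 mice differed from D06 mice by -0.24 (95% interval -1.36 to 0.88) and from BPR21 mice by -0.10 (95% interval -1.28 to 1.08). D06 mice differed from BPR21 mice by 0.14 (95% interval -0.92 to 1.20). The limma FDR was 0.957, 0.996 and 0.960, and 0%, 0% and 0.0571% of all genes were called. The sign of each of these 3 differences depended on the processing. Each interval holds a difference of 1 doubling in at least 1 direction, and that of D11 against BPR21 in both.

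Within a group Apol11b differed between mice more than nearly every other gene. The SD of its vst values within groups was 1.36, against a median of 0.26 over all genes, and only Alb, Hba-a1, Hba-a2 and Hbb-bs had a larger one. Alb encodes albumin, made in the liver, and the other 3 encode haemoglobin chains, which the library preparation was designed to deplete. Among the 664 genes whose mean lay within 0.5 of that of Apol11b, the median SD was 0.23 and Apol11b ranked 2. In CPM the highest mouse of a group exceeded its lowest by 13.2-fold in E07 to 31.2-fold in D11 mice. The rank of its SD among all genes was 1 in control, 20 in HOCl, 5 in D11, 16 in E07, 9 in D06 and 19 in BPR21 mice, so that the spread was not a feature of 1 group.

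**Figure D2:**
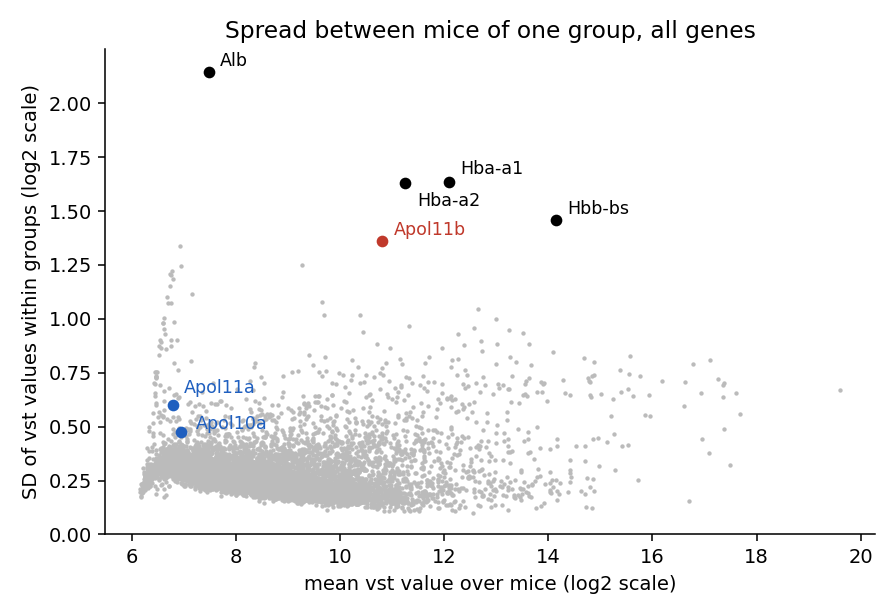
SD of vst values within groups (y axis, log2 scale) against the mean vst value over 70 mice (x axis, log2 scale), 1 point a gene for 10508 genes. Apol11b, at a mean of 10.8 and an SD of 1.36, stands with Alb and the globin genes above almost all genes of its level.

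Mice with much Apol11b had much Apol11a and Apol10a in vst values, less clearly so in E07 mice by ranks of CPM. Over the deviations of 70 mice from their group means, Pearson's r with Apol11b was 0.847 for Apol11a and 0.828 for Apol10a, and the next gene, Txn2, followed at 0.637. Within single groups r ran from 0.550 to 0.936 for Apol11a and from 0.742 to 0.896 for Apol10a. Leaving out, for each of these 2 genes, the 2 mice in which it lay farthest from its group mean gave 0.836 and 0.814. Both stayed the first 2 of all genes with ranks in place of values, on the CPM scale and after centring each mouse. They also did so in the 4 groups outside the contrast that chose Apol11b. In each group the mouse with the most Apol11b (CPM) ranked 1 or 2 for Apol11a and for Apol10a. These correlations are descriptions over mice that share a library preparation, and genes were ranked by them, so that they carry no p.

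**Figure D3:**
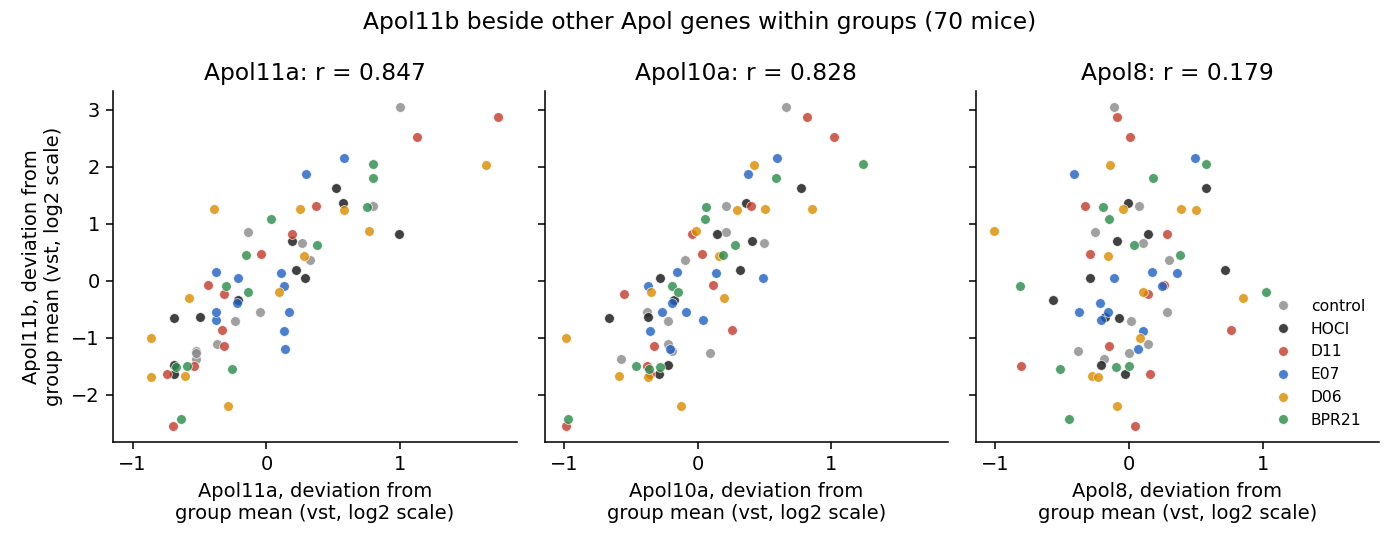
Deviation of Apol11b from the group mean (y axis, vst, log2 scale) against that of Apol11a, Apol10a and Apol8 (x axes, same scale), 1 point a mouse, coloured by group. The points rise together for Apol11a (r = 0.847) and Apol10a (r = 0.828), and scatter for Apol8 (r = 0.179).

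Both companions were far scarcer than Apol11b. Median counts were 13 for Apol11a and 25 for Apol10a, against 1527 for Apol11b, and 12 and 4 of 71 mice had a count of 0. Summed over the mice of a group, Apol11a counts came to 1.04% of the Apol11b counts in control, 0.825% in HOCl, 1.21% in D11, 0.999% in E07, 1.33% in D06 and 1.16% in BPR21 mice. Apol10a counts came to between 0.908% (control) and 2.13% (E07) of them. In E07 mice, where the median Apol11a count was 9.5, the rank correlation of Apol11a with Apol11b in CPM was 0.183, against 0.830 to 0.963 in the other 5 groups. For Apol10a it was 0.497 in E07 mice and 0.692 to 0.916 in the other groups.

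Because the 3 genes are close copies, part of their reads may be hard to assign. The coding sequence of Apol11b was 93.5% identical to that of Apol11a and 76.0% to that of Apol10a. Of the windows of 100 bases along each canonical transcript, 7.33% of the Apol11b windows, 2.09% of the Apol11a windows and 26.9% of the Apol10a windows occurred letter for letter in a transcript of another gene. How reads that fit more than 1 gene were counted is not given in the sources used here, and whether reads of Apol11b were counted for Apol11a or Apol10a was not tested.

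Another member of the cluster showed the same pattern. Apol10c-ps, a transcribed pseudogene with no vst value, lies 12.7 kb from Apol11b and had a median count of 19. Its r with Apol11b on the scale of log2(CPM + 1) was 0.758 over 71 mice, beside 0.854 for Apol11a and 0.769 for Apol10a on the same scale. Its counts summed to 0.982% of the Apol11b counts in E07 mice and to 1.34% in D06 mice, the lowest and the highest share among the groups. It shares exact windows of 100 bases with Apol10a. The non-coding gene Gm62754, which has no counts, spans Apol10c-ps on the same strand and shares such windows with Apol11b and Apol10a. Whether reads of Apol11b were counted for Apol10c-ps was not tested.

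For the rest of the cluster r with Apol11b was low. Of the 13 other Apol genes in the count table, 4 have a vst value. Apol8 had an r of 0.179 and Apol9b, an interferon-induced member, 0.152 in vst values. On the CPM scale, on which the median r over all genes was -0.22, r was 0.068 for Apol10b, -0.057 for Apol7b and -0.107 for Apol7e. Apol7b, Apol10b and Apol7e had median counts of 3, 5 and 12. The abundant neighbour Myh9, with a median count of 4002, had an r of -0.122 in vst values. Of 27 annotated genes within 200 kb, 22 are in the count table, and 12 of these had a median count of 0. The snRNA gene Gm22107, with a median count of 30, had an r of 0.103 on the CPM scale. Myh9 had -0.372 on that scale.

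**Figure D4:**
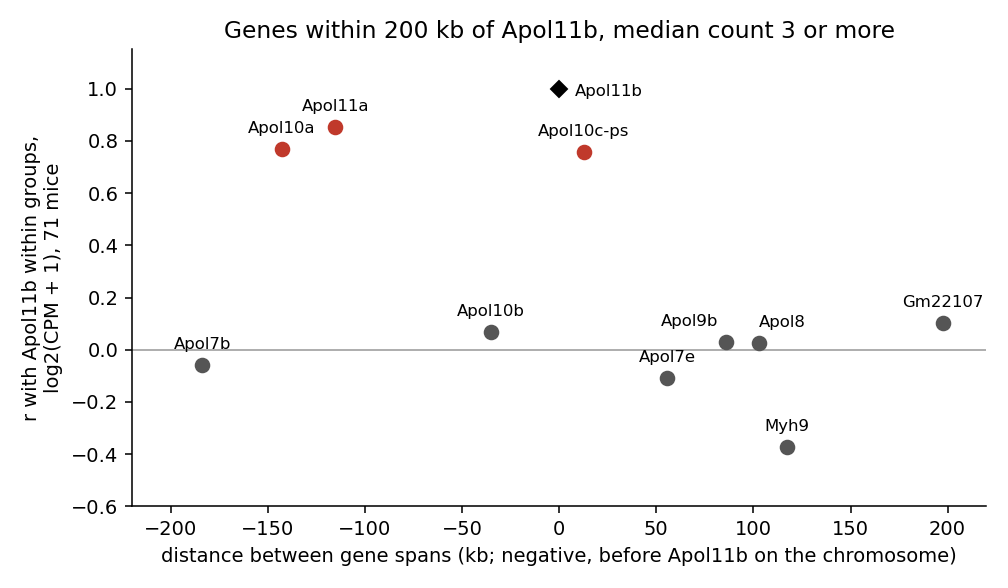
Pearson's r with Apol11b over within-group deviations of log2(CPM + 1) in 71 mice (y axis) for the genes within 200 kb with a median count of 3 or more, by the distance between gene spans in kb (x axis). Apol11a (0.854), Apol10a (0.769) and Apol10c-ps (0.758) stand near the top, on both sides of Apol11b, and the genes between and beyond them lie near or under 0.

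Between HOCl mice and control or E07 mice, the 4 other Apol genes differed by less than Apol11b in vst values. In median CPM, Apol10a and Apol11a differed in proportion more than Apol11b between control and HOCl mice. Between HOCl and E07 mice they differed less, and Apol8 and Apol9b differed less in both steps. Because HOCl mice chose Apol11b and Apol10a varied with it from mouse to mouse, the values in HOCl mice are a description. HOCl mice differed from control mice in vst values by 0.54 (SE 0.16) for Apol10a, 0.43 (SE 0.12) for Apol8, 0.24 (SE 0.15) for Apol9b and 0.16 (SE 0.22) for Apol11a. The median of Apol10a was 0.853 CPM in control, 2.57 CPM in HOCl and 0.841 CPM in E07 mice, a wider step in proportion than that of Apol11b between control and HOCl mice. For Apol11a these medians were 0.378, 1.12 and 0.687 CPM. In D11, D06 and BPR21 mice, 0 of the 4 genes passed the limma test against control mice, in vst values or in log2(CPM + 1), and 2, 1 and 1 of them had an unadjusted p under 0.05 in vst values. Of all 10508 genes, 1697, 2436 and 2095 had such a p. The differences had medians over the 4 genes of 0.37, 0.31 and 0.32 beside medians over all genes of -0.01, -0.03 and -0.01. E07 mice differed from HOCl mice by -0.47 for Apol10a, -0.45 for Apol8, -0.31 for Apol11a and -0.25 for Apol9b. Low counts shrink differences on the vst scale, which has a floor that each of the 70 mice reached.

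After the Apol genes came genes of varied functions, at lower and nearly equal r. Txn2 encodes mitochondrial thioredoxin and had an r of 0.637. It lies on chromosome 15 as well, 271.8 kb from Apol11b beyond Myh9. Bsg, the carrier of a blood group antigen and partner of lactate transporters, had 0.633, and Acp1, a small tyrosine phosphatase, 0.633. Nipa1, a magnesium transporter, had 0.625, and Atpif1, the inhibitor of mitochondrial ATP synthase, 0.621. Auh, a mitochondrial hydratase that binds RNA, had 0.620, Snx22, a sorting nexin, 0.619, and Snrnp25, of the minor spliceosome, 0.618. In all, 384 of 10507 genes had an r over 0.5, and 35 had one under -0.4. The lowest were Eif3l, a subunit of a translation initiation factor (-0.474), the kappa light chain segment Igkv9-124 (-0.465), the exchange factor Psd4 (-0.460), Tmem198b (-0.459) and another kappa segment (-0.451). Of the 10 most alike genes, 5 were again among the first 10 with ranks in place of values and 5 in the 4 groups alone, so that the order after Apol11a and Apol10a is not firm.

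Genes of red cells as a class varied with Apol11b. The lists were chosen with earlier results of these data known. Of 45 genes of the red cell membrane, heme synthesis, erythroid regulators and reticulocyte maturation lists with a vst value, 45 had an r above 0, with a median of 0.53 beside -0.03 over all genes. For the 16 membrane genes the median r was 0.56, and Slc4a1 (band 3, the anion exchanger of the red cell) had 0.565. For 11 heme synthesis genes the median was 0.52, with Alas2, the first enzyme of the pathway in red cells, at 0.519 and Fech (ferrochelatase) at 0.525. The 10 reticulocyte maturation genes had a median of 0.53, with Bnip3l, which removes mitochondria from reticulocytes, at 0.568. The 8 erythroid regulators had a median of 0.33, and among them Lmo2, a partner of Gata1 and Tal1, had 0.550. On the CPM scale the 4 medians were 0.41, 0.29, 0.33 and 0.02, against -0.22 over all genes.

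Other blood classes lay nearer to all genes. The median r was 0.23 for 11 platelet genes, 0.26 for 6 proliferation genes, 0.04 for 11 neutrophil genes, -0.05 for 10 monocyte genes, -0.06 for 10 T cell genes, -0.07 for 9 NK cell genes, -0.09 for 5 eosinophil genes and -0.21 for 10 B cell genes. Of the B cell genes, 0 of 10 had an r above 0, with Cd79a at -0.186 and Cd79b at -0.248. For 19 interferon-stimulated genes the median was 0.04, and their r ranged from -0.243 to 0.564. The 3 most abundant of them, Rsad2 (0.564), Isg15 (0.555) and Irf7 (0.516), stood at the top of that range, in the range of the red cell genes. Among the proliferation genes Ube2c, which acts in mitotic exit, had an r of 0.603 and Mki67 0.512. Lgals3, which encodes the target of the antibodies, had an r of -0.083. The 2 measured genes of the non-blood list, Alb and Apoa1, had 0.092 and 0.096.

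The vst values of the 45 red cell genes were turned into z scores and averaged in each mouse, and this average is called the erythroid score. The r of Apol11b with the erythroid score was 0.691 (rho 0.418) in control, 0.449 (rho 0.40) in HOCl, 0.672 (rho 0.629) in D11, 0.728 (rho 0.825) in E07, 0.520 (rho 0.657) in D06 and 0.605 (rho 0.615) in BPR21 mice. Two-sided permutation tests of r with 100000 resamples, adjusted over the 6 groups, gave p of 0.037 in control, 0.037 in D11, 0.089 in D06 and 0.054 in BPR21 mice. For rho the adjusted permutation p was 0.227 in control, 0.056 in D11, 0.056 in D06 and 0.056 in BPR21 mice. In the same order, the unadjusted permutation p was 0.019, 0.018, 0.074 and 0.036 for r and 0.203, 0.033, 0.024 and 0.037 for rho. The adjustment took in the HOCl and E07 mice and was not repeated over the 4 tested groups alone. Where only the unadjusted p is under 0.05, passing thus rests on the adjustment. The HOCl and E07 mice chose the gene, and their r and rho are given as a description.
The relation in E07 and BPR21 mice did not rest on the 2 mice farthest from the median score, with an r of 0.725 and 0.717 without them, and in D11 mice r was then 0.589. In control, HOCl and D06 mice r fell to 0.357, 0.266 and 0.280 without those 2 mice, and control mouse 12 was the highest of its group for both Apol11b and the score. On the CPM scale r was 0.288 in control, 0.185 in HOCl and 0.490 to 0.602 in the other groups, and none of the 4 tested groups passed at an adjusted p of 0.05.

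**Figure D5:**
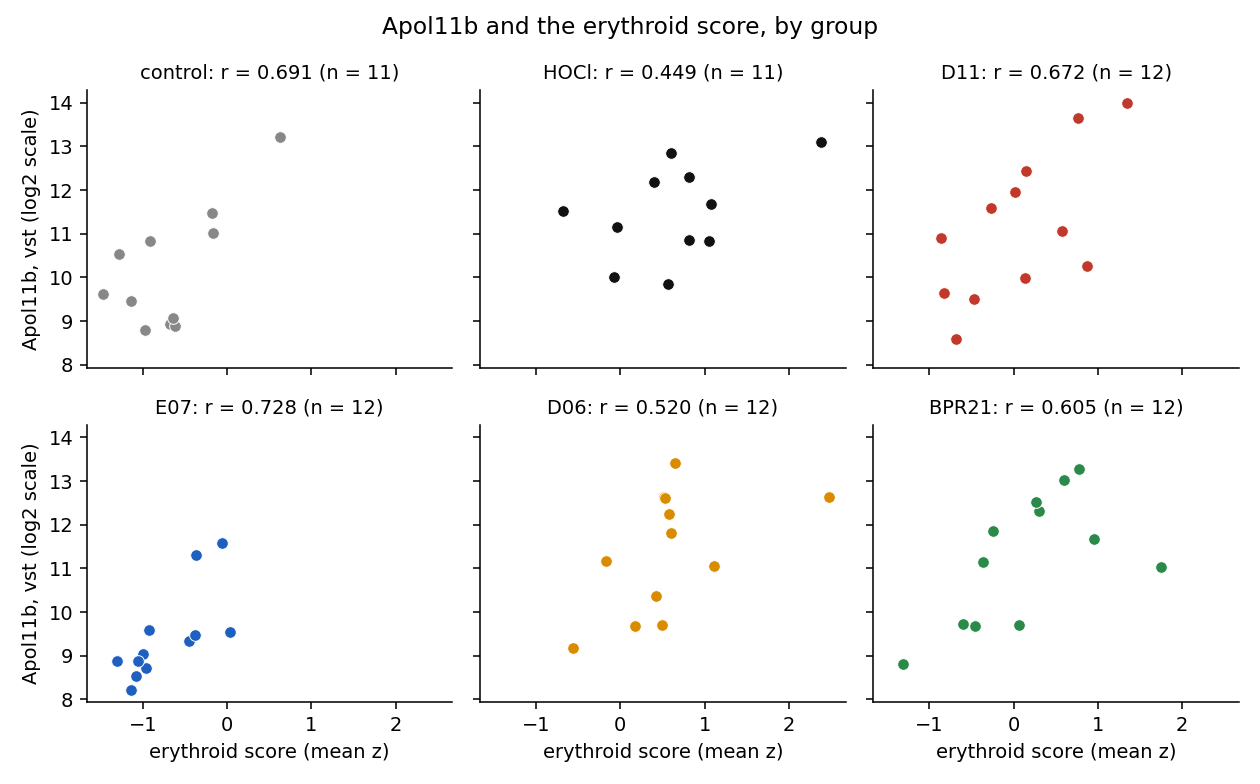
Apol11b (y axis, vst, log2 scale) against the erythroid score (x axis, mean z of 45 red cell genes), 1 point a mouse and 1 panel a group. Apol11b is higher in mice of higher score in each panel, with r from 0.449 in HOCl to 0.728 in E07 mice, and E07 and control mice lie mostly at scores under 0.

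The score moved between the groups together with Apol11b. Its mean was -0.68 ± 0.60 in control, 0.63 ± 0.79 in HOCl, 0.06 ± 0.72 in D11, -0.73 ± 0.45 in E07, 0.57 ± 0.74 in D06 and 0.14 ± 0.82 in BPR21 mice (SD). Of the 45 red cell genes, 35 rose in HOCl against control mice (4.79% of all genes did, and 4.96% were called in either direction). This HOCl count is a description and carries no test, because HOCl mice chose Apol11b and the 45 genes varied with it. In D06 against control mice, which were tested, 39 of the 45 rose (7.27% of all genes did). In D11 and BPR21 against control mice 0 of 45 passed the limma test (0.0761% and 0.152% of all genes rose), and 34 of 45 had an unadjusted p under 0.05 in each. Of all 10508 genes, 1697 and 2095 had such a p in these comparisons. The medians over the 45 genes were 0.54 and 0.57 there, and on the CPM scale 0 of 45 were called as well. In D06 against control mice the number called fell from 39 to 28 of 45 on the CPM scale, on which 7042 of 10503 genes were called, mostly lower. E07 mice differed from HOCl mice by a median of -0.97 over the same genes.

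With the score as a covariate the differences of Apol11b from control mice were -0.21 in D11, -0.31 in D06 and 0.03 in BPR21 mice (limma FDR 0.978, 0.882 and 0.999). The described difference of HOCl from control mice became 0.05, and that of E07 from HOCl mice became -0.86. In blood, fewer red cell precursors and reticulocytes and less RNA in each of them cannot be told apart from such values, and the part of red cell RNA in the group differences of Apol11b was not tested. Within groups the score accounted for 35.3% of the variance of Apol11b. Its SD around the fitted line was 1.10, compared with 1.36 before.

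Apol11a and Apol10a kept their place when the score was taken out. Over deviations from the regression on the score, r with Apol11b was 0.844 for Apol11a and 0.729 for Apol10a, and the next gene, Zfp871, had 0.410. Txn2, Bsg and Acp1 then had 0.286, 0.297 and 0.274, and Slc4a1 had -0.02.

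Technical measures moved with Apol11b to differing degrees. Within groups r was -0.104 with the log2 total count, -0.525 with the log2 size factor (the median of ratios to the geometric mean, from the counts) and 0.069 with the summed CPM of the non-blood list. Mean size factors were 1.29 in control and 1.28 in E07 mice, against 0.94 in HOCl, 0.97 in D11, 0.87 in D06 and 0.98 in BPR21 mice. Above the floor, the same count becomes a lower vst value where the size factor is larger. The median difference of vst values over all genes was 0.02 for E07 against HOCl and -0.02 for HOCl against control mice. The part of the size factors in the differences of Apol11b was not tested, and these differences were repeated under other ways of scaling. With vst values centred on the median of each mouse, the differences from control mice were 0.97 in D11, 1.22 in D06 and 1.08 in BPR21 mice. In edgeR with TMM they were 1.17, 1.04 and 0.95. On the CPM scale they were 0.67, 0.75 and 0.76. On that scale the median over all genes shifted by -0.36, -0.57 and -0.38 in the same comparisons.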

How the data were processed

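Whole-blood RNA of 71 mice was analysed. Reads were aligned and counted by the authors, with STAR, featureCounts and the mouse build mm39 named in the submitters' processing notes. The deposited tables hold raw counts per gene and log2 values from the variance stabilizing transformation (vst) of DESeq2 that the authors computed. Per the study's methods, the authors kept protein-coding genes and removed those with no or little expression in nearly all samples, which left 10508 genes in the vst table. Both tables name mice by group and number, with 0 columns left unassigned. Of the 10508 genes, 10503 were paired with a count row by symbol or annotation name.

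The gene, the lists of genes and the comparisons were chosen with earlier results of these data known. The genes named are Apol11b, the other Apol genes, annotated neighbours within 200 kb, Lgals3, the 10 genes of highest and 5 of lowest within-group Pearson r, and leading genes of each list. A few examples beyond these (Zfp871 and the most variable genes) were chosen after their values were seen. Fits used limma 3.58.1 on vst values of the 2 groups compared, with Benjamini-Hochberg adjustment. Alternatives used edgeR 4.0.16, DESeq2 1.42.0 and log2(CPM + 1), with a pseudocount of 1. CPM and RPKM were computed from total counts and exon lengths of GENCODE M39. Scripts were tested on simulated data. Samples are separate mice, and p-values measure the spread between mice.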

Additional observations from a re-analysis of the deposited data

How the results depend on the processing

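Each of the 6 tested comparisons was repeated under 11 other settings, and Apol11b was called in 0 of these 66 fits. Against control mice, the D11 and D06 differences changed sign with the erythroid score as a covariate (-0.21 and -0.31), and BPR21 fell to 0.03. D11 against D06 changed sign in edgeR with TMM (0.11), DESeq2 size factors (0.12), no filter (0.12) and filterByExpr (0.12), in DESeq2 (0.12) and with the score (0.40). D11 against BPR21 did so in the same fits (0.22, 0.20, 0.22, 0.22, 0.20 and 0.0033). D06 against BPR21 changed sign on the CPM scale (-0.011) and with the score (-0.30). The cause was not tested. Leaving out 1 mouse gave 0.70 to 1.26 for D11, 1.02 to 1.51 for D06 and 0.87 to 1.36 for BPR21 against control. Each lowest value was without that group's highest mouse (D11 mouse 3, D06 mouse 9 and BPR21 mouse 9), and each highest value was without control mouse 12. Among the described pairs, the score as a covariate, added after seeing the data, gave 0.0499 for HOCl against control, and -0.86, -0.45, -0.43, -0.74 and -0.66 for E07 against HOCl, D11, D06, BPR21 and control. Against HOCl it gave 0.25 for D11 and 0.17 for BPR21, where the sign turned, and -0.07 for D06.

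The correlation with the score passed the adjusted permutation test in control and D11 mice, and no longer did so on the CPM scale (0.288 and 0.585). In E07 mice, described only, r was 0.602 on that scale. In BPR21 mice it passed after centring (0.615) and with membrane genes alone (0.646). Of the 10 genes most alike, 5 were kept with ranks and 5 in the 4 groups alone.

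Over all genes, the number called ranged across settings from 5 to 235 for D11 (8 in the fits reported above), 3 to 7042 for D06 (828), 0 to 678 for BPR21 (53), each against control. On the CPM scale the calls were mostly lower, with 0 higher and 18 lower for D11 (8 and 0 in vst values), 292 and 6750 for D06 (764 and 64) and 9 and 669 for BPR21 (16 and 37). It ranged from 0 to 38 for D06 against BPR21 (6) and from 0 to 5 for D11 against BPR21 (0), and was 0 in each setting for D11 against D06, where 655 genes had an unadjusted p under 0.05 with limma (621 for D11 against BPR21). Where limma called 0 for BPR21 against control (with the score) and for D06 against BPR21 (on the CPM scale), 596 and 993 genes had such a p.

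Mouse numbers name different animals. Same-numbered mice correlated by 0.00041 to 0.117 on average over all genes, against -0.0084 to 0.0014 for mice of different numbers. For no comparison was every same-numbered pair over 0.1. For Apol11b alone, r between same-numbered mice averaged -0.027 over 15 pairs of groups and ran from -0.574 to 0.711. The numbers were not used as pairs in the main fits. Whether mice of the same number share a batch or an order of processing was not tested. Blocking on the mouse number (a replicate block) gave differences from control mice of 0.70 in D11, 1.35 in D06 and 0.96 in BPR21 mice, with no call of Apol11b (limma FDR from 0.0779). The block left out mouse 3 of each of these groups, since no control mouse has that number. Leaving out the same mouse without a block gave the same differences. Over all genes the block called 115 in D11 and 534 in BPR21 against control, compared with 8 and 53 in the main fits.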
